A study of Homo sapiens with 2 samples.

Results

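Integrins are cell surface receptors made of 1 alpha and 1 beta subunit, and the genes described here encode the 10 subunits through which blood cells mostly bind other cells and matrix: ITGAM, ITGAL, ITGAX, ITGB2, ITGA4, ITGA5, ITGA6, ITGB1, ITGB7 and ITGAE. They were taken by symbol from a table of 50868 genes, and all 10 were found there. The RNA came from the established human line KASUMI-1, derived from acute myeloid leukaemia and bearing the RUNX1-RUNX1T1 fusion. Its cells had been infected with lentivirus, labelled pccl in the group taken as control and USP6, after a deubiquitinase, in the other. Each group was 1 sequencing library of this 1 line, with no replicate, and neither the time after infection nor any selection of infected cells is given in the sources used here. The question behind the comparison, per the series title, is how USP6 bears on RUNX1 fusion proteins, and the differences below compare these 2 libraries only.

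The beta chain sets the integrin family and the alpha chain mostly sets the ligand. ITGB2 encodes the beta-2 chain (CD18), found almost only on leukocytes, where it pairs with the alpha chains of ITGAL, ITGAM and ITGAX (CD11a, CD11b and CD11c) to bind ICAM proteins, complement fragments and fibrinogen. ITGB1 encodes the beta-1 chain of most matrix receptors, which pairs with the products of ITGA4, ITGA5 and ITGA6, and ITGB7 the beta-7 chain of mucosal homing receptors, which pairs with those of ITGA4 and ITGAE. An alpha chain reaches the cell surface only with a beta partner. In myeloid development ITGAM and ITGAX are known as genes of maturing monocytes and granulocytes, whereas ITGA4 and ITGA5 are already present on progenitors.

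The libraries had similar depth, 12306442 counts for pccl and 12518795 for USP6, of which the mitochondrial genome took 49.9% and 45.6%. USP6 itself had 8 and 70 counts. The line's own markers were present: all 6 genes of a KASUMI-1 list were expressed, which here means at least 1 FPKM (fragments scaled by gene length and by the library's total count) in the higher library. KIT had 99.3 FPKM with pccl (in the pccl library) and 39.99 with USP6, and MPO 27.4 and 122 FPKM. The USP6 gene lay under 1 FPKM in both libraries, at 0.0396 and 0.340 FPKM, 8.60-fold higher in the USP6 library (4.13 to 20.7). All intervals are at 95% and cover counting error only. PCR copies of 1 molecule would make them too narrow, and differences between cultures lie outside them.

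Among expressed members, the beta-2 family and the beta-1 family stood on opposite sides, with ITGA5 as the exception. ITGAM, ITGAX, ITGB2 and ITGA5 were higher in the USP6 library, and ITGA4 and ITGB1 were lower. These were the 6 members that were expressed, and the other 4, ITGAL, ITGA6, ITGB7 and ITGAE, lay under 1 FPKM in both libraries. On the scale of log2((USP6 + 1)/(pccl + 1)) of FPKM, 2 of the 6 expressed members were at or past 1, ITGAM and ITGAX, against 13.7% of all 10153 expressed genes. ITGA4 was the 1 member at or past -1, against 11.4% of expressed genes. At a limit of 0.58, which is 1.5-fold on that scale, all 6 passed, 4 higher and 2 lower, against 27.9% and 24.5% of expressed genes. The median of the 6 was 0.89 and that of all expressed genes 0.06. Members that pass an expression filter in 1 library alone, as ITGAM and ITGAX did, cannot have equal values, so these counts describe the list and give it no support. That limit applies equally to counts of the lists below, wherever their genes pass in 1 library alone. In bulk RNA, fewer cells of a type and less RNA per cell cannot be told apart.

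**Figure D1:**
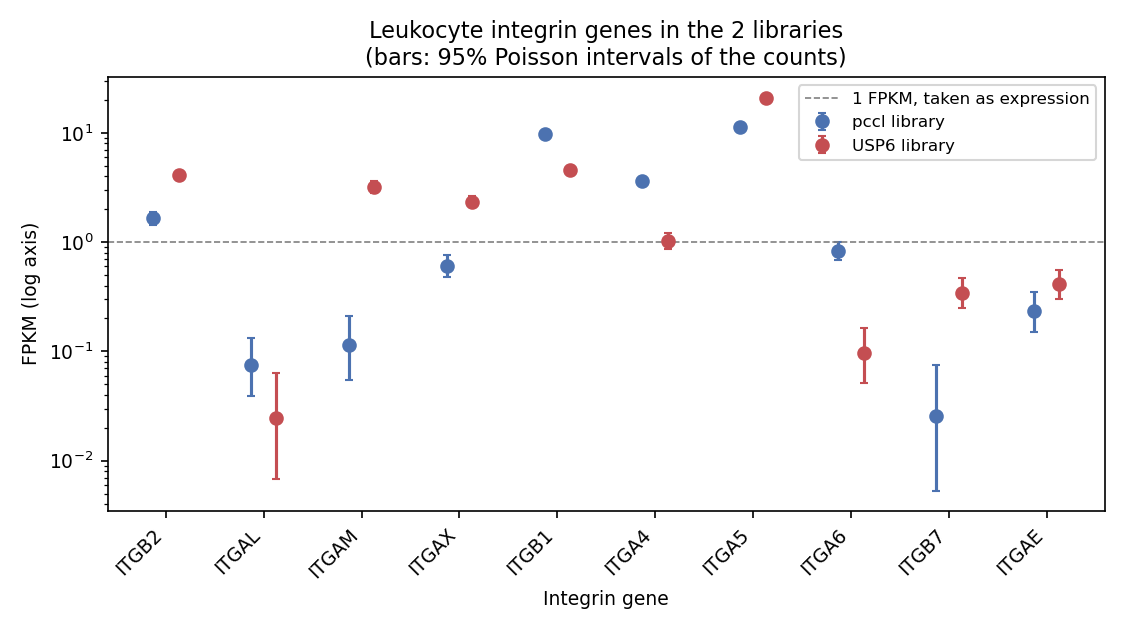
FPKM of each of the 10 integrin genes (log axis) in the pccl library (blue) and the USP6 library (red), with 95% Poisson intervals of the counts and a dashed line at 1 FPKM. ITGAM goes from 0.114 to 3.20 FPKM, and ITGA5 is the most abundant member in both libraries.

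The sequence before the RefSeq start of 4 members is shown for the most changed beta-2 gene and for the 3 most abundant genes of the beta-1 family, which went both ways. Each run holds the 250 bases before the start, 5′ to 3′ on the gene's own strand, in GRCh38.p14 coordinates. RefSeq starts differ from the gene bounds given below. Parts of the ITGA4 and ITGA5 runs and all of the ITGB1 run lie inside those bounds. Capitals mark matches on either strand to TGTGGT (a RUNX motif), GAGGAA (PU.1), GGGCGG (SP1), CCGGAA (ETS factors) or TTNNGNAAT (C/EBP).
ITGAM, chr16:31259725-31259974, plus strand: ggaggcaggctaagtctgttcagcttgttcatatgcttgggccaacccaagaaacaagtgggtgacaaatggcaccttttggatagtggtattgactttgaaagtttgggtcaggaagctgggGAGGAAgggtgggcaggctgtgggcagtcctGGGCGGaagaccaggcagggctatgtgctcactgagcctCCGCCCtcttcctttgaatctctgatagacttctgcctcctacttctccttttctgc
ITGA5, chr12:54419267-54419516, minus strand: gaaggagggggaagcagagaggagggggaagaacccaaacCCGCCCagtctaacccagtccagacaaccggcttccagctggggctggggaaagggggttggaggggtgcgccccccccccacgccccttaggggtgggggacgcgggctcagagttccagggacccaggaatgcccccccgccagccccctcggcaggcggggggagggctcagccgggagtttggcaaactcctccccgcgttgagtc
ITGA4, chr2:181457136-181457385, plus strand: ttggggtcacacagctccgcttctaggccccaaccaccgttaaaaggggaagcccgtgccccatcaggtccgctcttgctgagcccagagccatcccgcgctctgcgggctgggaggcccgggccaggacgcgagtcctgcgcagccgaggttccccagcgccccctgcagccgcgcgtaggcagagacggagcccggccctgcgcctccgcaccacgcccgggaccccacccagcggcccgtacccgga
ITGB1, chr10:32958231-32958480, minus strand: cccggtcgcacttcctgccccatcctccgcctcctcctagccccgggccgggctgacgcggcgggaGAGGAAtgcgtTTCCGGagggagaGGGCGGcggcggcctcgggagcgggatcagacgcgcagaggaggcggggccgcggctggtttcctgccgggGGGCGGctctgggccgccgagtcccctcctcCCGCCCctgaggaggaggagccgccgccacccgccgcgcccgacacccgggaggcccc

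RefSeq gave windows of 300 bases, reaching 50 bases past the start, for 7 members, in 9 windows because ITGA6 and ITGB1 have 2 each. ITGAL, ITGAX and ITGB2 had no entry. The ITGAM window held 2 CpG pairs, where 18.2% of all 35116 windows held as few, and the median window held 14. Those of ITGA4, ITGA5 and ITGB1 held 31, 16 and 39. In the ITGAM window, the PU.1 motif matched at -127 and 30 and the SP1 motif at -96 and -57, counted to the first base of the match, with the start as 1. The RUNX motif matched at 25, past the printed run, and shared its last base with the second PU.1 match. Over all windows the RUNX motif was found in 13.1%, that of PU.1 in 27.9%, of SP1 in 44.95%, of ETS factors in 17.2% and of C/EBP in 10.998%. The ITGA4 window had none of the 5, that of ITGA5 had 1 SP1 match, and the ITGB1 window shown had 3 SP1 matches, 1 of PU.1 and 1 of ETS factors. The ITGA6 windows each had a RUNX match, at 14 in one and -237 in the other, with 1 SP1 match in the first and 3 of SP1 and 1 of ETS factors in the second. The other ITGB1 window had none of the 5. The PU.1 motif also matched at -28 and 25 in the ITGB7 window, and 1 time, at -152, in that of ITGAE. Matches are letters in these windows, and binding was not measured.

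ITGAM (ENSG00000169896, chromosome 16 from 31259990 to 31332892) encodes the alpha chain of complement receptor 3. It had 10 counts (0.114 FPKM) with pccl and 285 counts (3.20 FPKM) with USP6, 28.0-fold higher with an interval of 15.0 to 59.1. Its log2 ratio of 1.91 was reached or passed by 1.62% of expressed genes. ITGAX (ENSG00000140678, chromosome 16 from 31355134 to 31382997), the neighbouring gene, encodes the alpha chain of complement receptor 4. It had 79 counts (0.608 FPKM) and 310 counts (2.35 FPKM), 3.86-fold higher (3.004 to 5.003). Both genes thus crossed 1 FPKM from below.

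ITGB2 (ENSG00000160255, chromosome 21 from 44885953 to 44931989) encodes the chain that all of these alpha subunits need. It had 241 counts (1.64 FPKM) with pccl and 614 counts (4.12 FPKM) with USP6, 2.50-fold higher (2.15 to 2.92). Within its locus, the antisense gene ITGB2-AS1 had 2 and 17 counts, and AL844908.2, on the same strand, 0 and 15. These are few beside the counts of ITGB2, although the strandedness of the libraries is not given in the sources used here.

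ITGAL (ENSG00000005844, chromosome 16 from 30472658 to 30523185) encodes the alpha chain of LFA-1, the form that lymphocytes use most, and was the beta-2 partner that was not higher. It had 12 counts (0.0754 FPKM) and 4 counts (0.0247 FPKM). The ratio of 0.328 had an interval of 0.0770 to 1.08, so a difference was not detectable at this depth. The third alpha neighbour on chromosome 16, ITGAD, had 0 and 1 counts. Exact stretches of 50 bases shared between transcripts were rare: ITGAM had 21 of its 5767 in common with ITGAX, and ITGAX had 88 of its 7381 in common with other integrin genes, 67 of them with ITGAD. None of the other 8 members shared such a stretch with another integrin gene, as far as GENCODE release 29 lists their transcripts.

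The makeup of the beta-2 alpha messages differed between the libraries. Of the summed FPKM of ITGAL, ITGAM and ITGAX, ITGAX held 76.2% with pccl and 42.1% with USP6, and ITGAM 14.3% and 57.4%. By counts, ITGAX stayed ahead of ITGAM in the USP6 library, with 310 against 285. The sum of these alpha genes was 0.798 FPKM against 1.64 FPKM for ITGB2 in the pccl library, and 5.57 FPKM against 4.12 FPKM in the USP6 library. In FPKM, the alpha messages thus lay under the beta message in the first and over it in the second. FPKM of different genes depend on the gene lengths used. The deposited values imply 7124 bases for ITGAM, 10555 for ITGAX and 11916 for ITGB2. The longest transcripts of these genes have 4745, 4703 and 4781 bases, and with such lengths the order and the shares could differ.

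ITGB1 (ENSG00000150093, chromosome 10 from 32900319 to 33005792) had 1264 counts (9.66 FPKM) with pccl and 610 counts (4.58 FPKM) with USP6, 2.11-fold lower (1.91 to 2.33). ITGA4 (ENSG00000115232, chromosome 2 from 181457202 to 181536187), whose product binds VCAM1 and fibronectin, had 524 counts (3.61 FPKM) and 152 counts (1.03 FPKM), 3.51-fold lower (2.92 to 4.23). Its log2 ratio of -1.18 was reached or passed by 7.86% of expressed genes. ITGA6 (ENSG00000091409, chromosome 2 from 172427354 to 172506282), the gene of a laminin receptor chain, had 111 counts (0.837 FPKM) and 13 counts (0.0964 FPKM), 8.69-fold lower (4.88 to 16.8) at low levels. On the log2 scale with the pseudocount it stood at -0.74. The antisense genes ITGA6-AS1 and AC078883.1 within its locus had 11 and 18 counts and 25 and 16 counts, and reads of the strands may not have been separated.

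ITGA5 (ENSG00000161638, chromosome 12 from 54395261 to 54419460), the gene of the fibronectin receptor alpha chain, differed in the opposite direction to its partner ITGB1. It had 1754 counts (11.2 FPKM) with pccl and 3306 counts (20.7 FPKM) with USP6, 1.85-fold higher (1.75 to 1.96). It was the most abundant of the 10 members in both libraries. In the pccl library ITGB1 came next, at 9.66 FPKM, and then ITGA4, ITGB2, ITGA6 and ITGAX. In the USP6 library the order by FPKM after ITGA5 was ITGB1, ITGB2, ITGAM, ITGAX and ITGA4. The Poisson intervals of ITGB1 (4.23 to 4.96 FPKM) and ITGB2 (3.80 to 4.45 FPKM) overlapped there, as did those of ITGA6 and ITGAX in the pccl library. Among the low members, ITGAE, ITGAM, ITGAL and ITGB7 followed in that order with pccl, each overlapping the next. With USP6, ITGAE and ITGB7 overlapped, as did ITGA6 and ITGAL.

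ITGB7 and ITGAE, the genes of the beta-7 family, were low in both libraries. ITGB7 (ENSG00000139626, chromosome 12 from 53191318 to 53207307) had 3 counts (0.0256 FPKM) with pccl and 41 counts (0.344 FPKM) with USP6, a ratio of 13.4 with an interval of 4.29 to 67.8. It overlaps ZNF740 on the other strand over 3824 bases, a gene with 206 and 152 counts. ITGAE (ENSG00000083457, chromosome 17 from 3714628 to 3801243), whose product binds E-cadherin, had 24 counts (0.234 FPKM) and 43 counts (0.412 FPKM), a ratio of 1.76 (1.05 to 3.03). The kinase gene HASPIN lies within ITGAE on the other strand and had 28 and 9 counts. Counts of these 2 members may therefore hold reads of their neighbours.

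**Figure D2:**
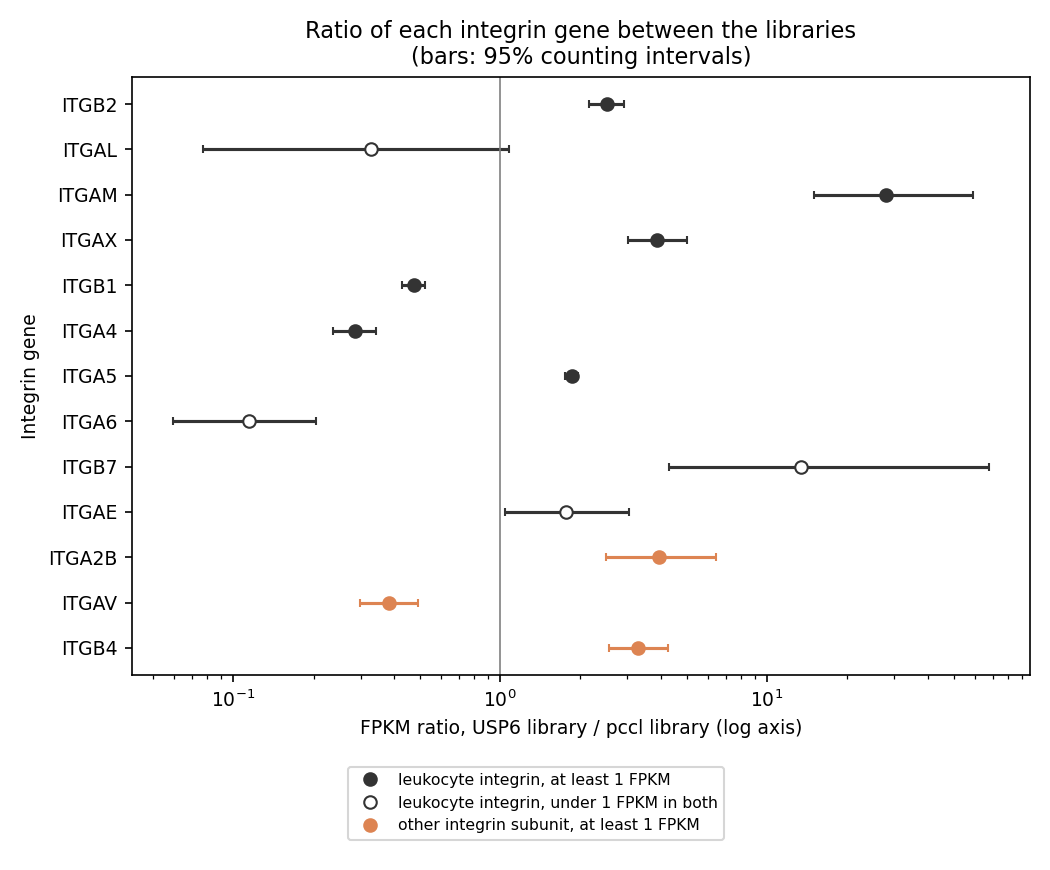
Ratio of FPKM, USP6 library over pccl library (log axis), of the 10 members (black, open where under 1 FPKM in both libraries) and of the 3 other integrin subunits that were expressed (orange), with 95% counting intervals. The interval of ITGAL includes 1, and those of the other 9 members do not.

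Set against its partner within a library, a gene's level does not depend on how the libraries are scaled. The trend with GC content described below remains in such ratios where partners differ in GC. On the log2 scale that trend stood at 0.23 for ITGA5 and -0.35 for ITGB1. In the pccl library ITGA5 had 1.16 times the FPKM of ITGB1 (1.08 to 1.25), and in the USP6 library 4.52 times (4.15 to 4.94), a 3.91-fold larger ratio (3.48 to 4.38). ITGA4 had 0.374 and 0.225 times the FPKM of ITGB1, 1.66-fold lower in the USP6 library (1.35 to 2.06), and ITGA6 0.0867 and 0.0210 times, 4.12-fold lower (2.29 to 8.04). The beta-1 partners thus moved apart, and ITGA5 held 71.5% and 94.8% of the summed FPKM of the 3.

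For ITGAM the level relative to ITGB2 was 0.0694 with pccl and 0.776 with USP6, 11.2-fold higher (5.85 to 24.0). For ITGAX it was 0.370 and 0.570, 1.54-fold higher (1.15 to 2.08), and for ITGAL 0.0459 and 0.00600, 7.64-fold lower (2.28 to 32.7). The ITGAL values rest on 12 and 4 counts, and its own ratio between the libraries had an interval of 0.0770 to 1.08. The higher ITGB2 of the USP6 library was therefore exceeded by the differences of ITGAM and ITGAX and not shared by ITGAL. The ratio of ITGA4 to ITGB7 was 141 and 2.99, and that of ITGAE to ITGB7 9.15 and 1.199, both resting on the 3 counts of ITGB7 in the pccl library.

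**Figure D3:**
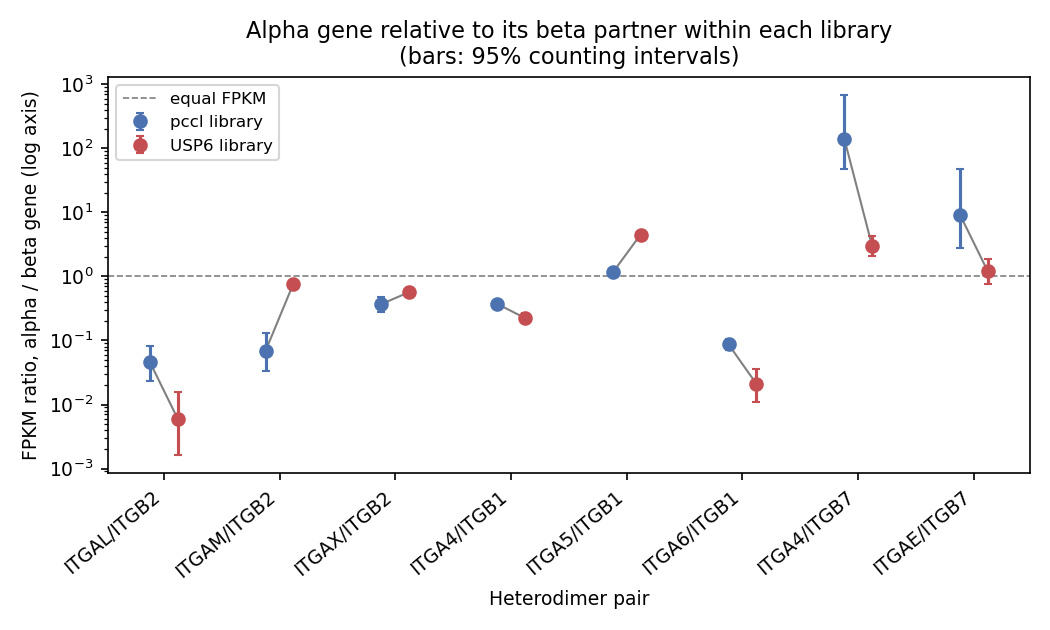
FPKM of the alpha gene divided by that of its beta partner (log axis) for 8 known pairs in the pccl library (blue) and the USP6 library (red), with 95% counting intervals and a dashed line at equal FPKM. ITGA5/ITGB1 goes up from 1.16 to 4.52 while ITGA4/ITGB1 and ITGA6/ITGB1 go down.

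The direction of the expressed members followed the GC content of their transcripts, a property with a trend over all genes in these libraries. The lower genes had the longest transcripts poorest in GC, ITGB1 with 39.98% and ITGA4 with 44.1%, and the 4 higher genes lay between 54.2% (ITGAM) and 60.0% (ITGB2). After centring on the trend, the log2 ratios were 1.70 for ITGAM, 0.73 for ITGAX, 0.61 for ITGA5, 0.42 for ITGB2, -0.59 for ITGB1 and -0.95 for ITGA4. All 6 kept their sign. ITGAM alone remained past 1, against 9.64% of all expressed genes, and 0 members were past -1, against 9.81%. At the limit of 0.58, 3 members were higher and 2 lower after centring, against 2233 and 2271 of all 10153 expressed genes. For ITGB2 the trend at its GC content, 0.53, was larger than what was left.

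**Figure D4:**
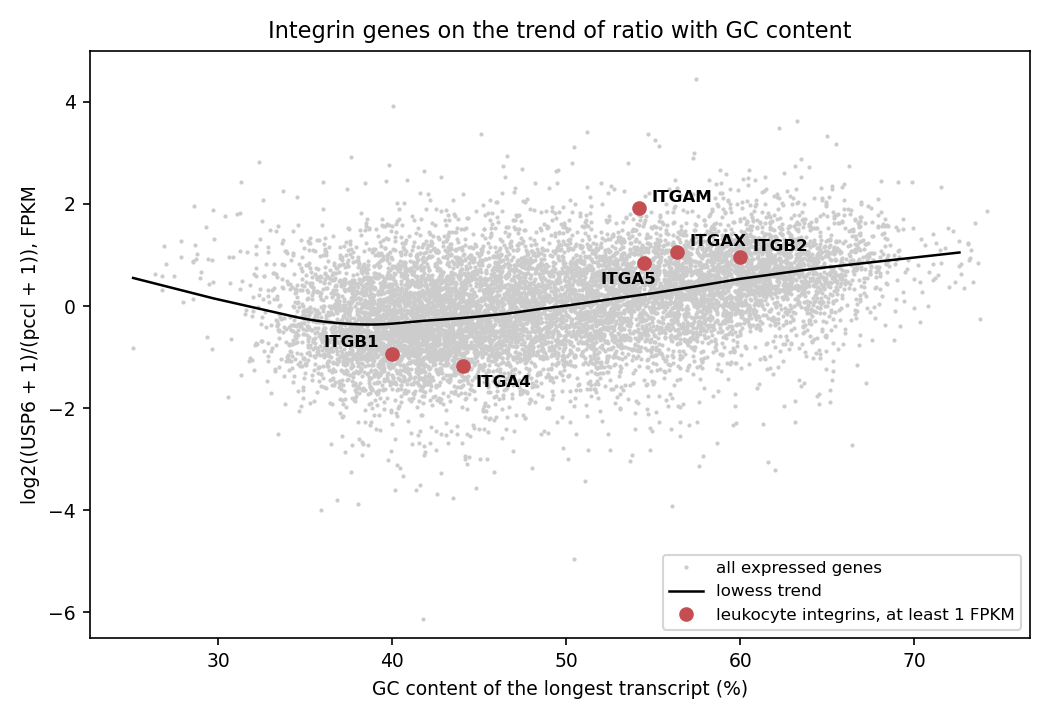
log2((USP6 + 1)/(pccl + 1)) of FPKM against the GC content of the longest transcript for all expressed genes (grey), with the lowess trend (black line) and the 6 expressed leukocyte integrins (red). ITGAM lies 1.70 above the trend and ITGA4 0.95 below it.

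Of the other 16 human integrin subunit genes, 3 were expressed. None was at or past 1 or -1, against 13.7% and 11.4% of all expressed genes. ITGB4, of epithelial hemidesmosomes, had 0.670 and 2.20 FPKM (3.28-fold higher, 2.56 to 4.25) and overlaps GALK1 on the other strand, which had 215 and 230 counts. ITGA2B, of the platelet fibrinogen receptor, had 0.257 and 1.01 FPKM (3.93-fold higher, 2.49 to 6.43). ITGAV, of the vitronectin receptors, had 1.41 and 0.542 FPKM (2.60-fold lower, 2.03 to 3.34). Their GC-centred log2 ratios were 0.23, 0.09 and -0.28. ITGB3, the beta partner of ITGA2B, had 0 and 1 counts, and 4 genes (ITGA2, ITGA8, ITGB5 and ITGB6) had a count of 0 in both libraries.

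Genes that switch integrins on inside the cell were split. Of 16 on the list, 11 were expressed, with a median of 0.08. At the limit of 0.58, 2 were higher and 1 lower, against 27.9% and 24.5% of all expressed genes. FERMT3, which encodes kindlin-3, the blood cell protein that binds beta tails, had 14.1 FPKM with pccl and 31.8 with USP6 (2.26-fold higher, 2.10 to 2.43). Talin, the other beta tail activator, followed: TLN1 had 21.2 and 38.4 FPKM (1.81-fold higher, 1.73 to 1.89). The adaptor gene SKAP2 had 3.46 and 0.448 FPKM (7.71-fold lower, 5.44 to 11.2). RAP1A, the small GTPase that recruits talin, had 13.7 and 9.15 FPKM, a log2 ratio of -0.53, and the rest lay between -0.54 and 0.55. After centring on the GC trend described above, the median was -0.03. There, 0 were higher and 2 lower at 0.58, against 2233 and 2271 of all 10153 expressed genes. FERMT3 and TLN1 then stood at 0.51 and 0.43, and SKAP2 at -1.26.

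Of 9 expressed genes on a list of those that hold integrins in the inactive state, 5 were higher and 0 lower at 0.58, against 27.9% and 24.5% of all expressed genes, with a median of 0.67 that was 0.30 after GC centring. SHARPIN, which binds alpha tails, had 8.83 and 27.9 FPKM (3.16-fold higher, 2.89 to 3.45), and DOK2, an adaptor, 2.82 and 9.04 FPKM (3.21-fold, 2.67 to 3.88). SIPA1, which turns RAP1 off, had 1.82 and 5.17 FPKM (2.84-fold, 2.42 to 3.34). RASA3, another GTPase-activating protein for RAP1, was 2.04-fold (1.66 to 2.51) and the filamin gene FLNA 1.996-fold higher (1.75 to 2.29). SHARPIN overlaps MAF1, with 697 and 616 counts, and SIPA1 overlaps PCNX3, EHBP1L1 and MAP3K11, the last with 596 and 1874 counts. After centring, 2 of the 9 were higher at 0.58, as were 2233 of all 10153 expressed genes, a similar share. CD47 and KRIT1 are on this list although both are also known to favour integrin activity, and they stood at 0.12 and -0.26.

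In the adhesion complex that links integrins to actin, 17 of 24 genes were expressed, with a median of -0.23. At 0.58, 3 were higher and 3 lower, against 27.9% and 24.5% of all expressed genes. PARVG, the blood cell parvin, had 3.52 and 11.7 FPKM (3.33-fold higher, 3.06 to 3.63), and LPXN, which encodes leupaxin, 2.997 and 8.46 FPKM (2.82-fold higher, 2.31 to 3.47). The SH2 adaptor gene CRK had 2.19 and 0.334 FPKM (6.56-fold lower, 4.35 to 10.2). RSU1 stood at -0.64 and the paxillin gene PXN at 0.69 on the log2 scale.

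Among ligands of beta-2 integrins, 6 of 14 were expressed, and the median was 0.67, or 0.22 after GC centring. At 0.58, 4 were higher and 1 lower, against 27.9% and 24.5% of all expressed genes. ICAM5 had 1.57 and 8.96 FPKM (5.70-fold higher, 4.67 to 7.02) and ICAM1 1.23 and 3.56 FPKM (2.90-fold, 2.25 to 3.77). F11R, which encodes the junctional protein JAM-A, had 2.41 and 0.257 FPKM (9.39-fold lower, 6.03 to 15.3). ICAM3 had 2.32 and 2.09 FPKM, a ratio of 0.904 with an interval that includes 1 (0.755 to 1.08). Of the 14 ligands of beta-1 and beta-7 integrins, EMILIN1 alone was expressed, with 0.0796 and 1.02 FPKM. VCAM1, FN1 and CDH1 had 0 counts in both libraries, which allows up to 3 counts in each.

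Membrane partners of integrins were split: 9 were expressed, and the median was -0.15. At 0.58, 3 were higher and 2 lower, against 27.9% and 24.5% of all expressed genes. The tetraspanin genes CD37 and CD81 stood apart in opposite directions. CD37 had 7.41 and 19.7 FPKM (2.66-fold higher, 2.46 to 2.87), and CD81 had 4.88 and 1.49 FPKM (3.28-fold lower, 2.83 to 3.82). CD151, the tetraspanin that binds laminin receptors, was 1.98-fold lower (1.72 to 2.29). CD81 and CD151 were lower although their transcripts hold 64.9% and 62.6% GC, and after centring they stood at -1.998 and -1.39.

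Of 10 expressed genes of integrin traffic, 0 were higher and 2 lower at 0.58, against 27.9% and 24.5% of all expressed genes, and the median was -0.38. The recycling GTPase gene RAB11A had 6.80 and 2.13 FPKM (3.20-fold lower, 2.75 to 3.72), and the retromer gene VPS35 3.75 and 0.960 FPKM (3.91-fold lower, 3.27 to 4.70). SNX17, whose product returns beta-1 integrins to the surface, stood at -0.58, as did the early endosome gene RAB5A, both just short of the limit before rounding. After GC centring the median was -0.07, with 1 higher and 3 lower, against 2233 and 2271 of all 10153 expressed genes.

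**Figure D5:**
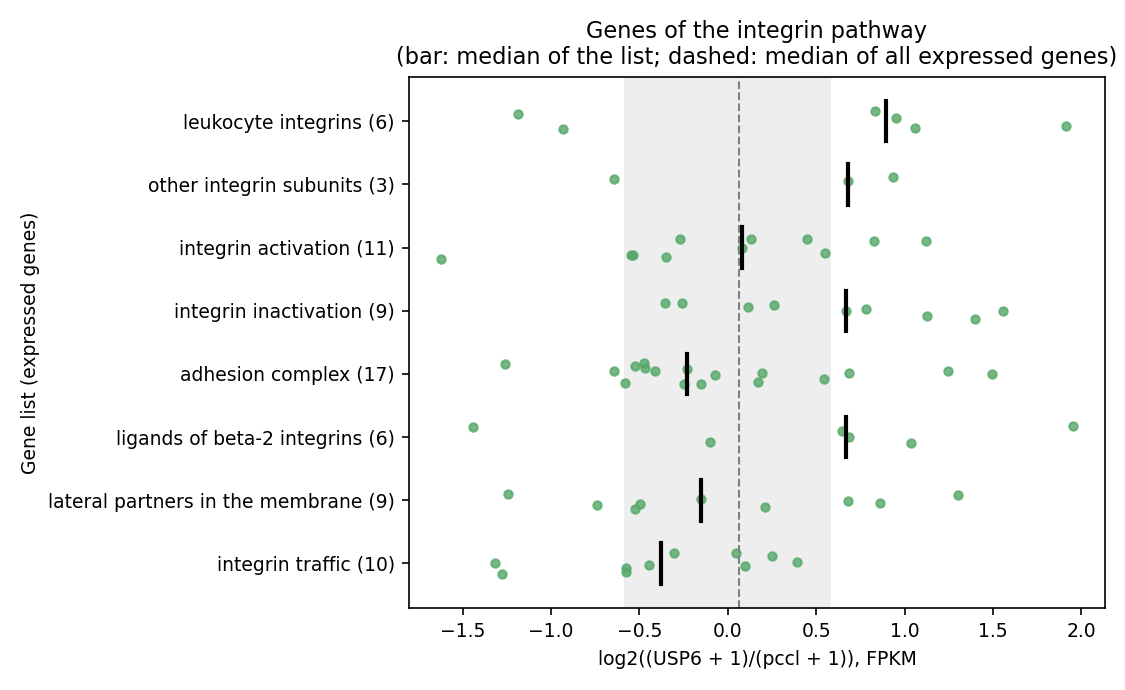
log2((USP6 + 1)/(pccl + 1)) of FPKM for the expressed genes of 8 lists (green points, number of genes in brackets), with the list's median (black bar), the median of all expressed genes (dashed line) and the zone between -0.58 and 0.58 (grey). The points of each list lie on both sides of the dashed line, with medians from -0.38 (traffic) to 0.89 (leukocyte integrins).

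Of 12 transcription factors known to act on leukocyte integrin genes, 10 were expressed, with a median of -0.31. At 0.58, 3 were higher and 5 lower, against 27.9% and 24.5% of all expressed genes. After GC centring the median was -0.65. There, 2 were higher and 5 lower, against 2233 and 2271 of all 10153 expressed genes. SPI1, which encodes PU.1, had 94.0 and 230.4 FPKM, and CEBPA 5.40 and 21.1 FPKM. Their log2 ratios of 1.29 and 1.79 were 0.52 and 0.99 after GC centring. SP1 had 13.7 and 1.92 FPKM (7.10-fold lower, 6.20 to 8.17) and GABPA 6.18 and 0.926 FPKM (6.67-fold lower, 5.16 to 8.74). GABPA overlaps ATP5PF, which had 1110 and 936 counts. RUNX3 had 1.46 and 0.409 FPKM, RUNX1 8.15 and 4.83, and MYB 4.72 and 1.43. The RUNX1 values may include reads of the RUNX1-RUNX1T1 fusion transcript, which counts per gene do not tell apart. Whether any of these bears on the integrin genes was not tested.

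Several cell types express these integrins, and markers of some differed between the libraries as well. Of 12 markers of maturing myeloid cells, 6 were expressed. At 0.58, 4 of these were higher and 0 lower, against 27.9% and 24.5% of all expressed genes. The summed FPKM of the list was 19.8 with pccl and 37.0 with USP6. FCGR1A was the most abundant, with 14.7 and 17.0 FPKM, and CSF3R had 1.328 and 1.325. The 4 higher were FCER1G (0.431 and 6.57 FPKM), CD33 (2.70 and 5.69), LILRB2 (0.0618 and 3.37) and TYROBP (0.0929 and 1.95). With pccl, FCER1G, LILRB2 and TYROBP had only 6, 6 and 3 counts. They passed the expression filter in the USP6 library alone and could not have come out equal, so this count gives no support. S100A8 and S100A9 had 0 counts in both libraries. Of 12 markers of T and natural killer cells 4 were expressed. At 0.58, 3 of these were higher and 0 lower, against the same shares of all expressed genes. The sum of the 12 markers was 39.2 and 48.1 FPKM, and KLRD1 was at 0. CD3D, the most abundant of them, had 27.8 and 22.6 FPKM, while CD2 had 0.156 and 3.10, CD3E 0.890 and 4.34, and CD4 9.57 and 16.7. CD2 and CD3E likewise passed the filter in the USP6 library alone. Of 7 B cell markers 3 were expressed, the sum of all 7 was 4.09 and 13.98 FPKM, and MS4A1 had 0 and 1 counts. Of 7 megakaryocyte markers GP1BB and ITGA2B were expressed, the sum of all 7 was 20.0 and 37.2 FPKM, and PF4 and PPBP were at 0. Of 9 erythroid markers EPOR alone was expressed, with 0.387 and 1.58 FPKM. The sum of all 9 was 0.926 and 2.16 FPKM, and ALAS2 was at 0. Of 9 stromal, endothelial and epithelial markers EPCAM alone was expressed, the sum of all 9 was 17.4 and 8.98 FPKM, and COL3A1 and VWF were at 0. The part of these genes' cells in the integrin values was not tested.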

How the data were processed

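RNA sequencing of KASUMI-1 cells gave 1 library per group, assigned by the labels. Per the submitters' processing notes, StringTie 1.3.3b, HISAT2 2.0.4 and edgeR were used, in roles not stated; build, annotation and strandedness: not given in the sources used here. Whole-number counts per gene were deposited by the authors. Their deposited FPKM can be rebuilt from count, gene length and column total, mitochondrial reads included: in all 16030 genes with counts in both libraries the implied length was the same within 0.1%. Coordinates are the table's; of 50111 identifiers in GENCODE release 29 (GRCh38), 94.8% had the identical locus.

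Rows of 1 symbol were summed (50464 symbols). Differences are log2((USP6 + 1)/(pccl + 1)) of FPKM, with a pseudocount of 1 and a filter of 1 FPKM in the higher library; the scale understates the fold of low genes. With 0 residual degrees of freedom no test was made, although counts exist. Folds carry conditional Clopper-Pearson intervals, and ratios of partner ratios exact conditional odds ratio intervals. GC content is that of the longest GENCODE transcript (lowess span 0.3; 45 expressed genes had none). The steps were tested on simulated data (SciPy 1.17.1, statsmodels 0.14.6, Python 3.11.15, R 4.3.3).

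The integrin genes and lists were chosen with earlier results of these data known. Named genes were the members, USP6, expressed integrin subunits, overlapping genes with counts, up to 5 expressed genes of largest ratio and any at or past 1 or -1 per pathway list, and up to 3 abundant genes per marker list. ICAM3, RAP1A, RUNX1, RUNX3, CD47, KRIT1, ITGB3, ITGAD, CSF3R, LILRB2, TYROBP, genes at 0 counts and neighbours of listed genes were named after their values were seen. Not every gene the rule names is described. Alternatives were no filter or one of 5 FPKM, pseudocounts of 0.1 and 5, edgeR 4.0.16's trimmed mean, a median ratio of 0, nuclear depth, GC centring, a limit of 0.58 and separate identifiers.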

Additional observations from a re-analysis of the deposited data

How the results depend on the processing

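No paired analysis was possible because each group holds 1 library, and for the same reason no library could be left out. Of the expressed members, 2 were at or past 1 and 1 at or past -1, with a median of 0.89. With a pseudocount of 0.1 these were 3 and 2 with a median of 1.08, and with a pseudocount of 5 they were 0 and 0 with a median of 0.42. With no filter the median over all 10 members was 0.29, and with 5 FPKM, which leaves ITGA5 and ITGB1, the counts were 0 and 0 with a median of -0.049. After GC centring they were 1 and 0 with a median of 0.52. At a limit of 0.58 they were 4 and 2. Of all expressed genes, 22.6% were higher and 19.6% lower with a pseudocount of 0.1. With a pseudocount of 5 these shares were 3.59% and 2.96%. They were 9.64% and 9.81% after GC centring, 27.9% and 24.5% at 0.58, and 19.6% and 16.5% with the filter of 5 FPKM. The trimmed mean and a median ratio of 0 each gave 2 higher and 2 lower members. All expressed genes then had 11.8% higher and 13.3% lower with the trimmed mean, and 12.1% and 12.9% with a median ratio of 0. Depth from nuclear genes gave 3 higher and 3 lower members, against 14.6% and 16.1%, with a median of 0.75. There ITGA6 passed 1 FPKM. Separate identifiers changed nothing, since each member has 1. Of 70 values of single members under these settings, 36 moved beyond their counting interval and 2 changed sign, those of ITGB7 and ITGAE, both under 1 FPKM, after GC centring. The log2 ratio of ITGAM ranged from 0.68 to 3.94 and that of ITGA4 from -1.72 to -0.51, mostly with the pseudocount. Depth limits members with few counts: ITGAL had 12 and 4, ITGB7 3 and 41, ITGAM 10 and 285, and ITGA6 111 and 13.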
